A study of Mus musculus with 9 samples.

Results

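The signal transducers and activators of transcription (STATs) are proteins that carry a signal from cytokine receptors to the nucleus. The 6 STAT genes described here are Stat2, Stat3, Stat4, Stat5a, Stat5b and Stat6, matched to 10 probes of the array through the RefSeq accession the probe carries. Each of the 6 was well above background on all 9 arrays and was among the 19071 genes tested, of which 13080 had a symbol. A STAT is held in the cytoplasm until a cytokine binds its receptor, a Janus kinase (JAK) on that receptor phosphorylates it, and the STAT then forms dimers that bind DNA in the nucleus. In CD4+ T cells STAT4 acts downstream of interleukin 12 (IL-12) and is tied to Th1 cells, STAT3 acts downstream of IL-6, IL-21 and IL-23 and is tied to Th17 cells, and STAT6 acts downstream of IL-4 and is tied to Th2 cells. STAT5A and STAT5B serve IL-2 and IL-7, and STAT2 serves type I interferon. The arrays measure the RNA of these factors, not their phosphorylation.

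RNA came from CD4+ T cells of BALB/c mice, taken from spleen and lymph node and enriched on magnetic columns. All 3 groups had the same stimulus for 3 h, phorbol myristate acetate (PMA) at 10 ng/ml with ionomycin at 500 ng/ml, so the naive arrays are of stimulated cells too. After a secretion assay for interferon gamma (IFN-γ) and IL-17A, cells were sorted as naive (high CD45RB), Th1 (low CD45RB, IFN-γ+ IL-17A-) or Th17 (low CD45RB, IFN-γ- IL-17A+), with 3 arrays a group. The groups therefore differ in CD45RB, a surface marker of naive cells, as well as in cytokine. Neither animals nor sorts are named for the 9 samples, so every p-value reflects the spread among these arrays alone, and that spread may be technical.

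A level is the log2 of an array's processed signal minus that array's 75th percentile, so 0 is the 75th percentile. A change is the difference of 2 group means on that scale, given ± the standard error of the limma fit, and a gene is called where the p-value adjusted over all 19071 genes is under 0.05. The share of probes well above background ran from 53.4% to 58.3% over the arrays. Of the 5 T cell markers, 4 or 5 were above background on each array. The B cell list had at most 1 of 4 above background and the NK cell list at most 1 of 3. The dendritic cell list had 1 or 2 of 3, and the myeloid list had 3 to 5 of 5. The myeloid list's summed linear level, with 1 for the array's 75th percentile, was 17.0 to 17.2 on naive, 25.8 to 31.8 on Th1 and 20.1 to 30.8 on Th17 arrays. Itgam was higher than in naive cells in Th1 (1.07) and Th17 cells (0.80), and Csf1r was lower (-0.72 and -0.77). Cd14 was higher in Th17 than in naive cells (3.06, adjusted p 0.000186) and than in Th1 cells (2.47, 0.00273), and Lyz2 was above background on Th17 replicates 1 and 3 alone. The part of these markers in the STAT results was not tested. Cd8a was below background on every array. Cd8b1, a chain of the CD8 receptor, was above background on all 9 arrays, with levels from -0.83 to -0.56 in naive cells and from -4.39 to -3.86 in the Th1 and Th17 arrays. Its part in the differences from naive cells was not tested. All naive arrays shared a slide with Th1 replicate 1, the second slide held the other 2 Th1 arrays and the first 2 Th17 arrays, and Th17 replicate 3 was on the third. No slide held both naive and Th17 cells. Where slide was fitted as a block, Th1 replicate 1 alone linked naive cells to the other slides. Th17 replicate 3, alone on its slide, then had no weight. For Th1 against naive and Th17 against Th1 cells, that fit gives the same change as the slide that held both groups. In sorted bulk samples, fewer cells of a type and less RNA per cell cannot be told apart.

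Promoter sequences of the 6 genes were searched for the letters of STAT and interferon elements. RefSeq (GRCm38.p6) gave 9 start sites for the 6 genes, and the 250 bases before each were searched on both strands. The STAT dimer site TTCNNNGAA was in 0 of the 9 windows and in 7.02% of 32851 windows of all genes. The same site with 1 more N, a spacing known for STAT6, was in the Stat2 window alone among the 9 and in 5.85% of all windows. The letters TTTCNNTTTC, a core of the interferon-stimulated response element bound by STAT2 with its partner IRF9, were chosen after the sequences had been read. They were in the Stat2 window and in 1 of the 2 Stat4 windows, against 2.98% of all windows. The capitals mark 1 match of these letters or their reverse complement in each stretch, and in the Isg15 stretch a further match overlaps it on each side. A pair of known interferon-induced genes from the list used below is shown for comparison with bases to each side, and every sequence is written on the strand of its gene. The Stat2 stretch is chr10:128270248-128270330 (+ strand), Stat4 chr1:52008098-52008197 (+ strand), Ifit1 chr19:34640794-34640823 (+ strand) and Isg15 chr4:156200871-156200900 (- strand).
Stat2: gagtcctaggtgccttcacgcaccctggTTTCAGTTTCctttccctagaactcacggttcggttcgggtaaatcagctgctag
Stat4: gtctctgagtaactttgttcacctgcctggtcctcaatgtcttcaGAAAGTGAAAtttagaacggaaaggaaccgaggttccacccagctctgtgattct
Ifit1: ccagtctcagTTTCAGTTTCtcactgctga
Isg15: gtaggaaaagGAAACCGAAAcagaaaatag

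The same 10 letters stand in capitals in the Stat2 stretch and in the Ifit1 match shown. Another Ifit1 match, which begins 104 bases before the start, differs from it by a single letter and is not shown. Ifit1 and Isg15 are both among the genes called lower in both effector groups below. Oas1a, Oas3 and Rsad2 of the same list also hold the letters and are not among those genes. A match describes the letters of these windows and says nothing of binding. On chromosome 11, Stat5b, Stat5a and Stat3 follow one another with no other RefSeq gene between them.

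Between Th1 and naive cells, Stat3 and Stat4 were higher and Stat2 and Stat5a lower in Th1 cells. Among all genes, 53.9% were called in this comparison, 23.5% higher and 30.4% lower, against 4 of the 6 STAT genes. Between Th17 and naive cells, Stat4 was higher and Stat2, Stat3 and Stat5a were lower, against 54.2% of all genes called, 24.4% higher and 29.7% lower. Between Th17 and Th1 cells, Stat3, Stat4 and Stat5a were lower in Th17 cells and 0 of the 6 were higher. Here 15.8% of all genes were called, 8.28% higher and 7.53% lower. The median change of the 6 was -0.03, -0.50 and -0.29 in these comparisons, beside -0.09, -0.09 and 0.01 over all genes. Both comparisons with naive cells use the same 3 naive arrays, so they are not independent. Stat5b and Stat6 were not called in any of the 3.

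**Figure D1:**
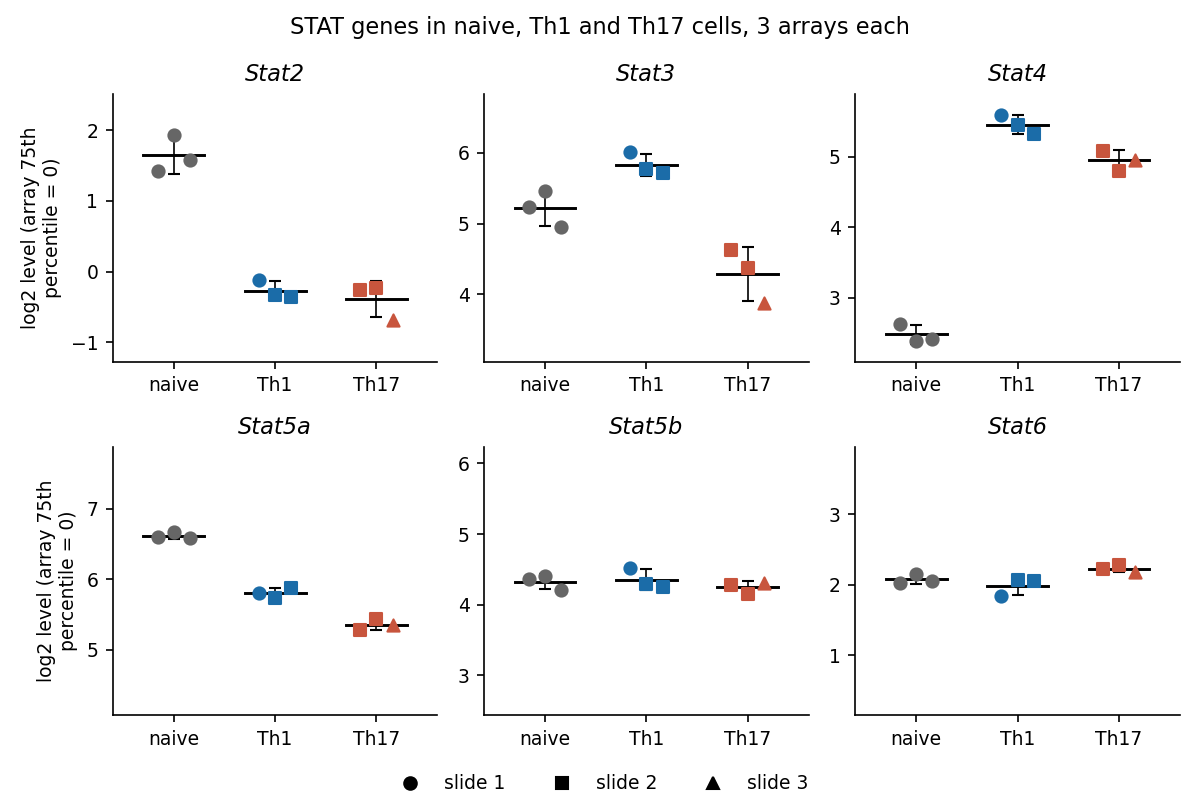
Level of each STAT gene on each array (vertical axis, log2 relative to the array's 75th percentile) in naive, Th1 and Th17 cells; points are arrays, shapes are slides, the bar is the mean and the whisker the SD of 3 arrays. Every panel covers an equal span of log2 units, and Stat2, Stat3, Stat4 and Stat5a separate from the naive arrays while Stat5b overlaps.

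Stat4, the STAT of the IL-12 pathway, had the largest change from naive cells among the 6. Its level was 2.63, 2.39 and 2.42 on naive replicates 1 to 3, 5.59, 5.44 and 5.32 on the Th1 arrays, and 5.09, 4.80 and 4.95 on the Th17 arrays. All 6 effector arrays lay above all naive arrays, and the lowest Th1 array lay above the highest Th17 array. Stat4 was 7.84-fold higher in Th1 than in naive cells (log2 change 2.97 ± 0.12, adjusted p 8.39e-07). It was 5.52-fold higher in Th17 than in naive cells (2.46 ± 0.12, adjusted p 2.33e-06). Of all genes, 3.31% changed more in size between Th1 and naive cells and 5.31% between Th17 and naive cells. Both calls held in every alternative setting run, at changes of 2.90 to 3.16 for Th1 and 2.39 to 2.68 for Th17 cells.

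The difference of Stat4 between the effector groups was smaller. Stat4 was 1.42-fold lower in Th17 than in Th1 cells (log2 change -0.51 ± 0.12, adjusted p 0.0258). This call was lost with slide as a block (-0.44, adjusted p 0.121) and on the slide that held both groups (-0.44, adjusted p 0.183). It was also lost without Th1 replicate 1 (-0.44, adjusted p 0.0786), Th1 replicate 2 (-0.51, 0.0771), Th17 replicate 2 (-0.43, 0.0787) or Th17 replicate 3 (-0.51, 0.0558), with no filter on dim probes (0.0725) and with only the 6 arrays compared (0.0562).

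Stat3, which serves the IL-6 family and IL-21 and IL-23, was the one STAT gene called in opposite directions in Th1 and Th17 cells against naive cells. Its level was 5.23, 5.46 and 4.95 in naive cells, 6.01, 5.77 and 5.72 in Th1 cells, and 4.62, 4.37 and 3.87 in Th17 cells. The 3 groups did not overlap: every Th1 array was above every naive array, and every naive array was above every Th17 array. The sort genes followed their gates: for Th17 against Th1 cells the change of Ifng was -7.40 and that of Il17a was 10.00.

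Stat3 was 2.91-fold lower in Th17 than in Th1 cells (log2 change -1.54 ± 0.21, adjusted p 0.00188), and 4.15% of genes changed more in size. This call held in each of the 12 other settings and each of the 9 fits that left out 1 array, with changes from -1.74 to -1.25. On the slide that held 2 Th1 and 2 Th17 arrays, Stat3 was also lower in Th17 cells (-1.25).

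The changes of Stat3 from naive cells were smaller and depended more on the setting. Stat3 was 1.53-fold higher in Th1 than in naive cells (log2 change 0.62 ± 0.21, adjusted p 0.0346). That call was lost without naive replicate 1 (0.62, adjusted p 0.0723), naive replicate 3 (0.49, 0.116), Th1 replicate 1 (0.53, 0.101), Th1 replicate 2 (0.65, 0.0682) or Th1 replicate 3 (0.67, 0.0557). It was also lost with no filter on dim probes (adjusted p 0.0733). On the slide that held both groups the change was 0.79 and not called, with Th1 replicate 1 as the only Th1 array. Stat3 was 1.90-fold lower in Th17 than in naive cells (-0.92 ± 0.21, adjusted p 0.00576). With slide as a block this change was -0.45 (adjusted p 0.279). That estimate rests on Th1 replicate 1 as the only link between naive and Th17 cells. The call of Stat3 for Th17 against naive cells held in the other settings run.

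Stat3 could be measured in more than one way on the array. Its brightest probe was printed at 10 spots, of which 8 to 10 were used per array, and the SD over those spots was at most 0.062 on any array. A second Stat3 probe gave changes of 0.66 for Th1 against naive cells, -1.01 for Th17 against naive cells and -1.66 for Th17 against Th1 cells, with p-values adjusted over all probes of 0.0421, 0.00646 and 0.00223. Both probes thus had the same direction and the same call in each comparison.

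**Figure D2:**
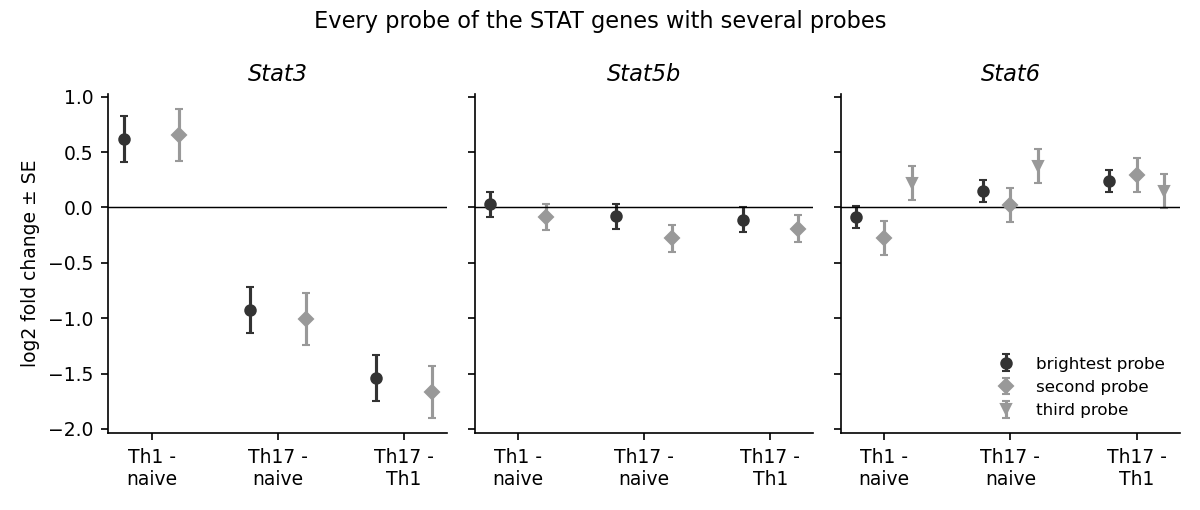
Log2 fold change ± SE (vertical axis) of every probe of Stat3, Stat5b and Stat6, the STAT genes with more than 1 probe, in the 3 comparisons. The 2 Stat3 probes lie close together, at 0.62 and 0.66, -0.92 and -1.01, and -1.54 and -1.66, while the Stat6 probes lie on both sides of 0 for Th1 against naive cells.

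Stat5a, one of the pair of factors downstream of IL-2 and IL-7, was highest in naive cells. Its level was 6.60, 6.67 and 6.58 in naive cells, 5.80, 5.73 and 5.88 in Th1 cells and 5.28, 5.43 and 5.35 in Th17 cells. The 3 groups did not overlap, with naive arrays on top and Th17 arrays lowest. Stat5a was 1.76-fold lower in Th1 than in naive cells (log2 change -0.81 ± 0.09, adjusted p 0.000142) and 2.40-fold lower in Th17 than in naive cells (-1.26 ± 0.09, adjusted p 1.29e-05). Both calls held in every alternative run.

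Between the effector groups, Stat5a was 1.37-fold lower in Th17 than in Th1 cells (log2 change -0.45 ± 0.09, adjusted p 0.0116). The call held in the 9 fits that left out 1 array. It was lost with slide as a block (-0.45, adjusted p 0.0545) and on the slide that held both groups (-0.45, adjusted p 0.136), at the same size of change.

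Stat5b, the close relative of Stat5a, was not called in any comparison. Its level was 4.37, 4.41 and 4.21 in naive cells, 4.53, 4.29 and 4.26 in Th1 cells, and 4.28, 4.15 and 4.31 in Th17 cells. The 3 groups overlapped. The change was 0.03 for Th1 against naive cells (95% interval -0.23 to 0.28, adjusted p 0.845) and -0.08 for Th17 against naive cells (-0.33 to 0.17, adjusted p 0.566). For Th17 against Th1 cells it was -0.11 (-0.36 to 0.15, adjusted p 0.551). These intervals leave out changes as large as those of Stat5a against naive cells. The second Stat5b probe gave -0.09, -0.28 and -0.19 in the same order, with none called, the smallest adjusted p being 0.0847.

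Stat2, the STAT of type I interferon signalling, was highest in naive cells. Its level was 1.42, 1.93 and 1.58 in naive cells, -0.12, -0.33 and -0.36 in Th1 cells and -0.26, -0.23 and -0.69 in Th17 cells. All 6 effector arrays lay below all naive arrays, and the Th1 and Th17 arrays overlapped. Stat2 was 3.77-fold lower in Th1 than in naive cells (log2 change -1.91 ± 0.17, adjusted p 5.1e-05) and 4.09-fold lower in Th17 than in naive cells (-2.03 ± 0.17, adjusted p 3.33e-05). Of all genes, 8.2% and 7.72% changed more in size in these comparisons, and both calls held in every alternative run. For Th17 against Th1 cells the change was -0.12 (95% interval -0.52 to 0.28, adjusted p 0.679).

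Stat6, the STAT of IL-4 signalling, was not called in any comparison. Its brightest probe read 2.02, 2.15 and 2.05 in naive cells, 1.83, 2.07 and 2.06 in Th1 cells, and 2.23, 2.27 and 2.18 in Th17 cells. Every Th17 array lay above every array of the other groups, while naive and Th1 arrays overlapped. The change was -0.09 for Th1 against naive cells (95% interval -0.31 to 0.14, adjusted p 0.492) and 0.15 for Th17 against naive cells (-0.08 to 0.38, adjusted p 0.233). For Th17 against Th1 cells it was 0.24 (0.01 to 0.46, unadjusted p 0.0432, adjusted p 0.149). The other 2 probes of Stat6 gave 0.22 and -0.27 for Th1 against naive cells, 0.38 and 0.02 for Th17 against naive cells, and 0.15 and 0.29 for Th17 against Th1 cells, none called.

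**Figure D3:**
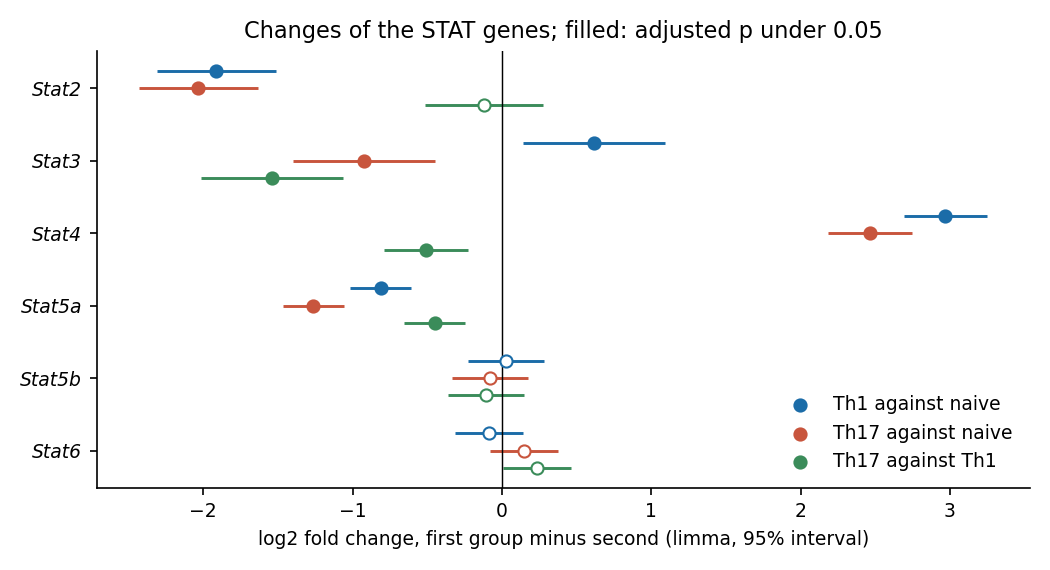
Log2 fold change (horizontal axis) of each STAT gene in the 3 comparisons, first group minus second, with the 95% interval of the limma fit; filled points are called. Stat4 lies near 3 and 2.5 above naive cells, Stat2 near -2 in both groups, and Stat3 on opposite sides of 0.

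The order of the groups thus differed from gene to gene. Stat4 ran Th1, Th17, naive from high to low, Stat3 ran Th1, naive, Th17, and Stat5a ran naive, Th1, Th17. In some settings the Stat4 and Stat5a differences between Th1 and Th17 cells were not called. The same held for both Stat3 differences from naive cells. For Stat2 the naive arrays came first and the Th1 and Th17 arrays did not separate. For Stat5b and Stat6 no difference between groups was called, so their order is not given.

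The Janus kinases, which phosphorylate STATs at the receptor, were all called against naive cells, 4 of 4 in each comparison beside 53.9% and 54.2% of all genes. Jak2 (0.74 and 0.39 in Th1 and Th17 cells), Jak3 (1.65 and 1.01) and Tyk2 (0.86 and 1.38) were higher, and Jak1 (-0.69 and -1.06) was lower. The smallest margin was that of Jak3 in Th17 cells (adjusted p 0.0246). With slide as a block, Jak1 was among the calls lost: 3 kinases were higher and 0 lower in Th1 cells, and 2 higher and 0 lower in Th17 cells. Of all genes, 41.4% and 27.5% were called in that setting. Between Th17 and Th1 cells 0 of 4 were called, with changes of -0.37, -0.35, -0.65 and 0.52 for Jak1, Jak2, Jak3 and Tyk2 and adjusted p-values of 0.124, 0.078, 0.204 and 0.0752.

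Inhibitors of the pathway were measured for 15 of 16 genes: the SOCS proteins and CIS, which are induced by STATs and block the receptor or the kinase, PIAS proteins, and phosphatases. In Th1 cells 3 were higher and 3 lower than in naive cells, and in Th17 cells 1 was higher and 5 lower. That is 6 of 15 called in each comparison, a smaller share than the 53.9% and 54.2% of all genes. Socs2, a target of STAT5, read -4.49, -4.12 and -4.15 in naive cells, 3.42, 2.92 and 2.69 in Th1 cells and 2.07, 1.92 and 1.81 in Th17 cells. It was higher than in naive cells by 7.26 ± 0.19 in Th1 cells (adjusted p 1.19e-07) and by 6.19 ± 0.19 in Th17 cells (adjusted p 3.73e-07). Cish, another STAT5 target, had changes of 0.29 and 0.21, neither called. Socs7 (-1.02 and -1.28) and the phosphatase gene Ptpn6 (-0.80 and -1.33) were lower in both groups. Ptpn11, which encodes the phosphatase SHP-2, was higher in Th1 cells (0.80) and lower in Th17 cells (-0.49) than in naive cells.

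In Th17 against Th1 cells, 0 inhibitors were higher and 4 of 15 lower, beside 8.28% and 7.53% of all genes: Socs3 (-2.56 ± 0.58, adjusted p 0.0201), Ptpn11 (-1.29 ± 0.11, 0.000158), Socs5 (-1.16 ± 0.15, 0.00167) and Socs2 (-1.07 ± 0.19, 0.00775). Socs3 is the main feedback inhibitor of STAT3 and is itself a STAT3 target. Its level was 3.75, 3.01 and 2.71 in naive cells, 5.74, 4.26 and 4.11 in Th1 cells and 3.19, 1.99 and 1.25 in Th17 cells. Th1 arrays lay above both other groups, and naive and Th17 arrays overlapped. In each group the level fell from replicate 1 to replicate 3, and the fit did not pair arrays by number. Its changes from naive cells, 1.55 in Th1 (adjusted p 0.051) and -1.01 in Th17 cells (adjusted p 0.172), were not called.

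Nuclear and cytoplasmic partners of STATs were measured for 9 of 9 genes. In Th1 cells 1 was higher and 3 lower than in naive cells, and in Th17 cells 2 were higher and 4 lower, so 4 of 9 and 6 of 9 were called beside 53.9% and 54.2% of all genes. Irf9, the DNA-binding partner of STAT2, read 2.64, 2.51 and 2.50 in naive cells, 1.41, 1.31 and 1.33 in Th1 cells and 2.01, 1.86 and 1.80 in Th17 cells. The 3 groups did not overlap. Irf9 was lower than in naive cells, with a change of -1.20 ± 0.09 in Th1 cells (adjusted p 2.43e-05) and -0.66 ± 0.09 in Th17 cells (0.000564), and higher in Th17 than in Th1 cells (0.54 ± 0.09, 0.00673). Crebbp, a co-activator that acetylates histones, was higher in Th1 (0.96) and in Th17 cells (2.22) than in naive cells. The importin genes Kpna1 (-0.90 and -1.03) and Kpnb1 (-0.83 and -0.41) were lower in both groups.

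Receptors that signal through STAT3 were measured for 7 of 7 genes, and 4 were lower in Th1 and 6 in Th17 cells than in naive cells, beside 30.4% and 29.7% of all genes. In the direct comparison, 5 of the 7 were lower in Th17 than in Th1 cells, against 7.53% of all genes. These were Il21r (-1.51, adjusted p 0.000901), Il6st (-1.72, 0.00595), which encodes the shared gp130 chain, Il6ra (-0.96, 0.013), Il10ra (-2.05, 0.017) and Il27ra (-0.45, 0.0265). Il10rb was not called (-0.09, adjusted p 0.77). Il23r, the specific chain of the IL-23 receptor, went the other way and was well above background on all 3 Th17 arrays, 2 Th1 arrays and 0 naive arrays. It was at least 537-fold higher in Th17 than in naive cells, against the lowest signals above background. Il23r was also higher in Th17 than in Th1 cells (9.16 ± 0.54, adjusted p 2.45e-05). On the slide that held both groups, 2 of the 7 were lower in Th17 than in Th1 cells and 1 was higher. There 691 of all 19071 genes were called lower and 728 higher.

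Il21r had levels of 2.43, 2.83 and 2.45 in naive cells, 1.45, 1.74 and 1.34 in Th1 cells and -0.09, 0.30 and -0.19 in Th17 cells. The groups did not overlap, and the order was naive, Th1, Th17 from high to low. Its changes from naive cells were -1.06 ± 0.18 in Th1 (adjusted p 0.00129) and -2.57 ± 0.18 in Th17 cells (1.14e-05).

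Genes linked to STAT3 as targets were measured for 18 of 18, of which 9 were higher and 1 lower in Th1 cells, and 9 higher and 4 lower in Th17 cells, than in naive cells. Of all genes 23.5% and 24.4% were called higher and 30.4% and 29.7% lower. Il17a is in this list and was used for the sort, so its level is no finding, though the counts of genes higher in Th17 cells include it. In Th17 cells 5 were higher and 3 lower than in Th1 cells, beside 8.28% and 7.53% of all genes. Those higher in Th17 cells included Rora (1.98 ± 0.19, adjusted p 0.000291), which encodes a nuclear receptor, and the cytokine gene Il17f (6.48 ± 0.73, 0.000724), as well as Il17a and Il23r. Socs3, Il6st and Fosl2 (-0.88 ± 0.23, adjusted p 0.0379), an AP-1 factor, were lower, as was Stat3 itself. Il10 was higher than in naive cells in Th1 (8.53) and Th17 cells (7.60). Maf, which encodes a factor that drives Il10 and Il21, was higher by 4.82 in Th1 and 5.79 in Th17 cells. Pim1 was lower in both (-0.76 and -0.74).

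Of the receptors that signal through STAT4, Il12rb1, a chain shared by the receptors of IL-12 and IL-23, was higher in Th1 (1.24, adjusted p 0.011) and in Th17 cells (3.59, 4.11e-05) than in naive cells, and higher in Th17 than in Th1 cells (2.35, 0.0019). A second Il12rb1 probe gave 0.13 for Th1 against naive cells, not called, and 1.83 and 1.70 for Th17 against naive and Th1 cells, both called. Il12rb2, the IL-12-specific chain, had changes of -0.34 and -0.38 from naive cells, neither called. Of 10 genes linked to STAT4 as targets, 3 were higher and 1 lower in Th1 cells, and 3 were higher and 3 lower in Th17 cells. The 4 of 10 and 6 of 10 called lay near the 53.9% and 54.2% of all genes. Ifng is in this list and was used for the sort, and the count of genes higher in Th1 cells includes it. Il18rap, a chain of the IL-18 receptor, was below background on all naive arrays and at least 48.3-fold higher in Th1 and 53.4-fold higher in Th17 cells, and Il18r1 was higher by 4.53 and 5.47. Tbx21, which encodes the Th1 factor T-bet, had a change of 0.15 in Th1 cells against naive cells (95% interval -0.22 to 0.52, adjusted p 0.462) and was lower in Th17 than in Th1 cells (-0.61 ± 0.16, adjusted p 0.0374). Furin was higher in Th17 than in Th1 cells (1.69 ± 0.16, adjusted p 0.000328).

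Receptors that signal through STAT5 were measured for 6 of 6 genes. In Th1 cells 3 were higher and 1 lower than in naive cells, and in Th17 cells 5 were higher and 1 lower (all genes: 23.5% and 24.4% higher, 30.4% and 29.7% lower), while Stat5a itself was lower. Il7r, the IL-7 receptor, was higher by 1.99 in Th1 and 2.84 in Th17 cells, Il2rb by 1.73 and 1.90, and Il2ra by 0.48 and 1.30. Il15ra was lower (-0.74 and -0.96). Il9r changed by 0.34, not called, in Th1 cells and by 0.93, called, in Th17 cells on the probe used. A second Il9r probe gave 3.36 and 3.97, both called (adjusted p over probes 6.92e-05 and 2.59e-05), so the Th1 count depends on the probe. Between Th17 and Th1 cells, Il7r (0.85, adjusted p 0.0207) and Il2ra (0.82, 0.0163) were higher in Th17 cells. Of 12 genes linked to STAT5 as targets, 5 were higher and 2 lower in Th1 cells and 6 higher and 2 lower in Th17 cells. That is 7 and 8 called, beside 53.9% and 54.2% of all genes. Foxp3, which encodes the factor of regulatory T cells, was higher by 3.97 ± 0.21 in Th1 cells (adjusted p 2.84e-06) and by 3.17 ± 0.21 in Th17 cells (8.82e-06). The cell-cycle gene Ccnd2 was lower in both (-0.38 and -1.13).

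The list of interferon receptors that signal through STAT2 had 2 of 3 genes tested, the type I chains Ifnar1 and Ifnar2. The chain for lambda interferon, Ifnlr1, was not tested. Of the 2, 1 was lower in each effector group: Ifnar1 in Th1 cells (-0.84, adjusted p 0.0124) and Ifnar2 in Th17 cells (-0.63, 0.0042). Of the other Ifnar1 probes, one gave -0.73 in Th1 cells (adjusted p over probes 0.0328) and another -0.53, not called. Of 18 interferon-induced genes linked to STAT2, 14 were tested. In Th1 cells 9 were lower and 3 higher than in naive cells (median -2.21), and in Th17 cells 10 were lower and 2 higher (median -2.15), beside a median of -0.09 over all genes in both. Of all genes 30.4% and 29.7% were called lower. With slide as a block, 9 and 8 were lower, beside 4140 and 2498 of all 19071 genes. Between Th17 and Th1 cells 4 of the 14 were lower and 0 higher, beside 7.53% and 8.28% of all genes. On the slide that held both groups, 2 were lower, beside 691 of all 19071 genes.

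Usp18, which encodes a protease that removes ISG15 and restrains the interferon receptor, read 1.41, 2.004 and 2.18 in naive cells, -2.46, -3.23 and -3.29 in Th1 cells and -3.08, -3.79 and -3.48 in Th17 cells. Isg15, a ubiquitin-like protein gene, read 4.15, 4.26 and 4.52 in naive cells, 1.89, 1.36 and 1.07 in Th1 cells and 1.37, 0.98 and 1.17 in Th17 cells. For both genes all effector arrays lay below all naive arrays. The change of Usp18 was -4.85 ± 0.30 and -5.31 ± 0.30 (adjusted p 6.08e-06 and 3.83e-06), and that of Isg15 was -2.87 ± 0.21 and -3.14 ± 0.21 (1.76e-05 and 1.07e-05), in Th1 and Th17 cells. Ifit3, an RNA-binding antiviral protein gene, was below background in both effector groups and at least 14.8-fold lower in Th1 and 18.7-fold lower in Th17 cells. Ifit1 (-3.60 and -3.83) and Irf7 (-2.39 and -2.41), which encodes a factor that induces interferon, were lower too. Ifih1, which encodes the RNA sensor MDA5, was the largest exception, higher by 4.61 ± 0.15 in Th1 cells (adjusted p 2.78e-07) and 4.02 ± 0.15 in Th17 cells (7.27e-07), and its second probe was called in the same direction.

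A promoter window could be searched for 10 of the 14 tested genes, and 6 held the interferon element shown for Stat2, Ifit1 and Isg15. Among the 9 genes lower in both effector groups, 6 had a window and 3 held it: Ifit1, Ifit3 and Isg15. Among the other 5 genes, 4 had a window and 3 held it: Oas1a, Oas3 and Rsad2. The element was thus found in the windows of genes called lower and of genes not called lower.

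Il4ra, the receptor chain through which IL-4 activates STAT6, was lower in Th1 (-1.67 ± 0.13, adjusted p 2.4e-05) and in Th17 cells (-1.74 ± 0.13, 1.8e-05) than in naive cells, while Stat6 was not called. A second Il4ra probe gave -0.45 and -0.38, neither called. Of 9 genes linked to STAT6 as targets, 5 were higher and 2 lower in each effector group, beside 23.5% and 24.4% of all genes higher and 30.4% and 29.7% lower. Il4 was higher by 6.64 in Th1 and 5.05 in Th17 cells and Il13 by 7.92 and 7.63, both cytokines of Th2 cells. Gata3, the Th2 factor, had changes of 0.52 and 0.19, neither called. Ccr4, a chemokine receptor gene, was higher in Th17 than in Th1 cells (2.95 ± 0.27, adjusted p 0.000248), and Il4 was lower (-1.59 ± 0.37, 0.0217).

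**Figure D4:**
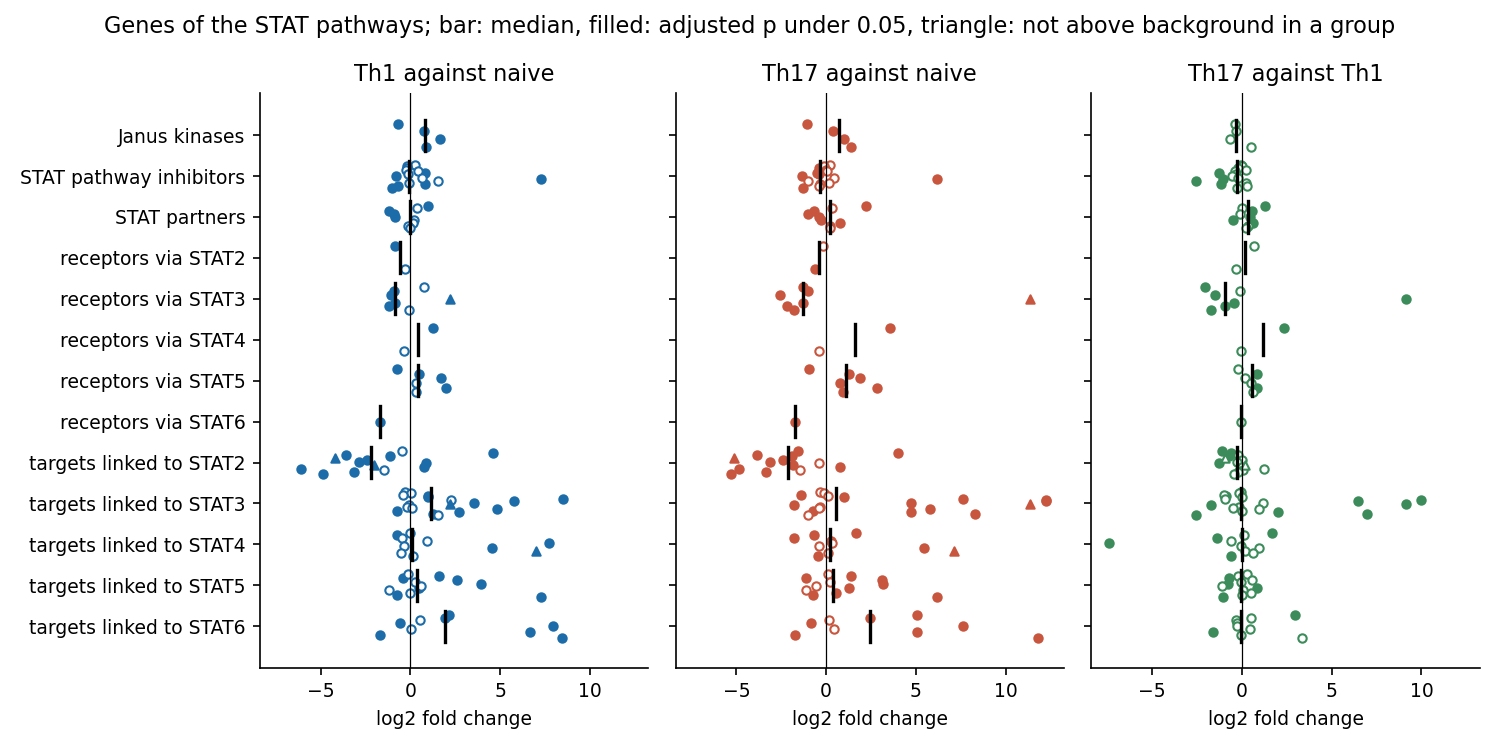
Log2 fold change (horizontal axis) of each tested gene of the STAT pathway lists (rows) in the 3 comparisons; filled points are called, triangles are genes not above background in a group, whose fitted change is no measured size, and bars are list medians. Most interferon-induced genes linked to STAT2 lie left of 0 against naive cells, with medians of -2.21 and -2.15, and 5 of the 7 receptors that signal through STAT3 lie left of 0 as called genes for Th17 against Th1 cells.

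Of the genes in these lists, 20 had further probes kept, and in none of the 3 comparisons were 2 probes of such a gene both called in opposite directions. In some comparisons one probe was called and the other not, at times with the other sign. For Th1 against naive cells, the change of Ptpn2, a phosphatase gene, was -0.10 on the reported probe (not called) and 0.69 on another (adjusted p 0.0103). For Th17 against naive cells, that of Stam, an adaptor gene, was 0.22 (not called) and -0.77 (0.00201). The lists overlap, with Socs3, Socs2, Il6st, Il23r, Il12rb2, Il2ra, Il4ra, Pim1 and Cish each in more than one of them.

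For each STAT gene, the genes with the most similar profile were sought among 11075 genes with a symbol that were well above background on all 9 arrays, by the root mean square difference of the centred levels. Nearest to Stat4 were Tnfrsf4 (0.176), which encodes the co-stimulatory receptor OX40, Cd3g (0.18), a CD3 chain gene, and Casp1 (0.186), the protease of inflammasomes. Nearest to Stat3 were Crxos (0.149), Nr4a2 (0.169), a nuclear receptor gene induced by T cell receptor signalling, and Mfsd6 (0.175). Nearest to Stat2 were Nin (0.103), Parp14 (0.111) and Cdyl (0.124). Nearest to Stat5a were Top3a (0.061), Rev3l (0.085) and Fam214a (0.089). Nearest to Stat5b was Golph3 (0.051) and nearest to Stat6 was the SOCS family gene Socs4 (0.036), whose profile, like those of Stat5b and Stat6, was nearly flat.

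Nr4a2 and Cd3g were picked for profiles close to those of Stat3 and Stat4, so their likeness to them follows from that choice. Nr4a2 showed the same order of groups as Stat3, with changes of 0.76 from naive to Th1 cells and -1.05 from naive to Th17 cells. Cd3g differed from naive cells by 2.85 in Th1 and 2.06 in Th17 cells, beside 2.97 and 2.46 for Stat4. The other T cell markers varied: from naive to Th1 and Th17 cells Cd3e changed by 2.20 and 1.63, both called, and Cd4 by 0.88, called, and 0.37, not called. Cd3d changed by 0.33 and -0.04, neither called. Cd247 ran from 2.08 to 3.16 on 8 arrays and was below background on Th17 replicate 2 (-7.60). The summed linear level of these 5 markers was 54.6 to 61.1 on naive, 100 to 130 on Th1 and 71.5 to 84.8 on Th17 arrays. Its part in the Stat4 result was not tested.

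**Figure D5:**
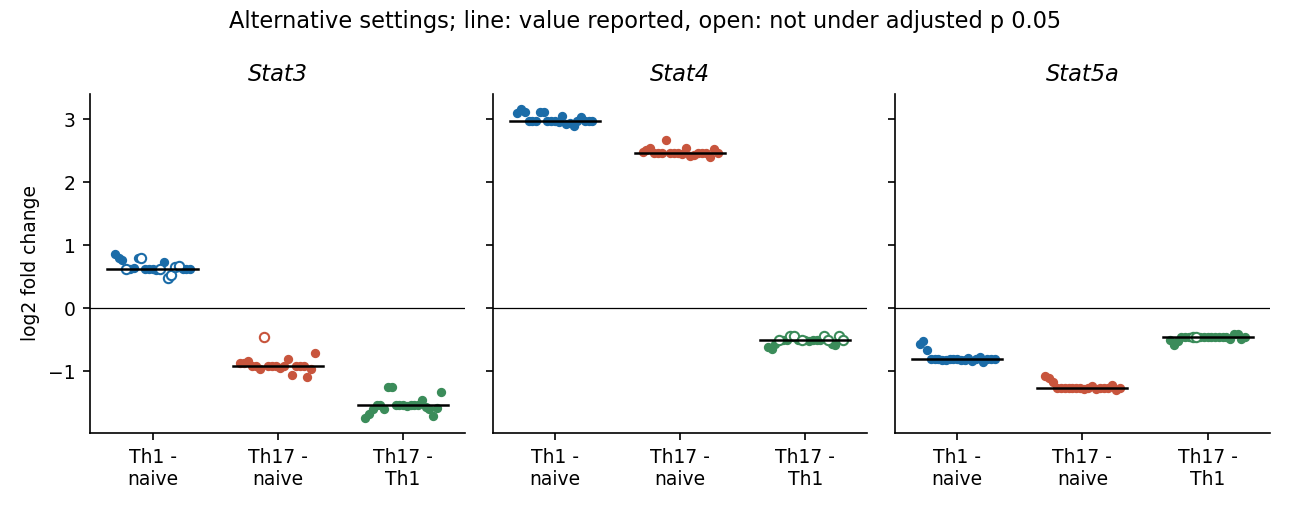
Log2 fold change (vertical axis) of Stat3, Stat4 and Stat5a under each alternative setting and with each array left out (points), around the value reported (line); open points are not called. All points of Stat3 for Th17 against Th1 cells are filled. Open points appear for Stat3 in both comparisons with naive cells and for Stat4 and Stat5a in Th17 against Th1 cells.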

How the data were processed

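The deposited files are scanner output of 9 1-colour Agilent arrays of design 026655. Per the file headers, the authors extracted the processed intensity, a background-subtracted signal, with Feature Extraction 10.7.3.1, while the submitters' processing notes give version 10.5. The build in the headers is mm9, used for no coordinate here. The authors' deposited table of log2 values tracked the levels computed here apart from a constant per probe (r after centring 1 on each array) and served as an alternative. Its column medians were 0.241, 0.284 and -0.096 on the naive, 0.166, 0.114 and -0.001 on the Th1 and -0.072, -0.047 and 0.047 on the Th17 arrays, and how it was centred per probe is not given in the sources used here.

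Control spots and outlier flags were left out, spots of a probe averaged, log2 intensity shifted by each array's 75th percentile, and probes kept that were well above background on at least 3 of 9 arrays (23215 of 39429). The brightest probe stood for a gene. Differences were tested with limma 3.58.1 in R 4.3.3, one fit over 9 arrays, two-sided, with Benjamini-Hochberg adjustment over 19071 genes; the fit was checked on simulated data. The number of arrays limits the precision. Symbols and promoters came from RefSeq. Alternatives were background correction, scaling, filter, probe rule, slide, replicate block, arrays fitted, variance trend, the authors' values and leaving out each array. A bound compares the bright group's mean with the higher, per array, of the lowest signal among probes well above background and the probe's own.

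The members and lists were chosen with earlier results of these data known. Named were all members, the Janus kinases, up to 4 genes per list and comparison by smallest p, list members outside a shared direction, sort genes, markers and the 3 nearest profiles. That rule also gave genes left unnamed above, Oasl1, Ncoa1 and Nmi among them. Cish, Pim1, Gata3, Fosl2, Il10ra, Irf7, Ifit1, Oas3, Rsad2, Ptpn2 and Stam were outside that rule and were named after their values were seen. List counts under the alternatives were added after the data were seen. A result for 1 gene is not reported here.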

Additional observations from a re-analysis of the deposited data

Results flagged for a closer look

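Stat3, Stat4 and Stat5a differed from naive cells by different amounts in Th1 and Th17 cells, by the direct test of Th17 against Th1 cells in the same limma fit. The difference was -1.54 for Stat3 (adjusted p 0.00188), where the 2 groups moved in opposite directions from naive cells. It was -0.51 for Stat4 (adjusted p 0.0258), where both rose, and -0.45 for Stat5a (adjusted p 0.0116), where both fell. On the slide that held both groups, the Stat3 difference kept its call and those of Stat4 and Stat5a did not. Why they differ was not tested.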

How the results depend on the processing

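Stat2, Stat4 and Stat5a kept their calls against naive cells, and Stat3 its call for Th17 against Th1 cells, in every setting run. For Th17 against Th1 cells, 1 STAT gene was called (Stat3) with slide as a block and 1 within one slide, against 3. Over all genes, 6547 were called for Th1 against naive cells within one slide, against 10288. With slide as a block, where Th1 replicate 1 alone linked naive to Th17 cells, 5242 genes were called for Th17 against naive cells, against 10332. For Th17 against Th1 cells, 1419 were called within one slide, and leaving out 1 array gave 1924 (without Th1 replicate 2) to 2784, against 3015. Uncalled changes turned sign as follows. Stat6 for Th1 against naive cells became 0.049 with quantile normalization and 0.061 with the 75th percentile of probes above background on all arrays; for Th17 against naive cells it became -0.058 with slide as a block. Stat5b for Th1 against naive cells became -0.028 with the mean of its probes and ranged from -0.055 to 0.080 with 1 array left out. Stat5b for Th17 against naive cells became 0.0011 with normexp, 0.0049 with that percentile and 0.14 with slide as a block. Stat2 for Th17 against Th1 cells became 0.10 with slide as a block and within one slide, and ranged from -0.20 to 0.028 with 1 array left out. That percentile moved the median of all genes for Th1 against naive cells from -0.09 to 0.06 and the share of calls that were higher from 43.6% to 55.2%, and for Th17 against Th1 cells from 52.4% to 41.6%. The cause was not tested. With the replicate block, 10165, 10286 and 3037 genes were called and no STAT call changed. Deviations of same-numbered arrays of different groups correlated at -0.007 to 0.175, and those of differently numbered arrays at -0.197 to 0.065. The same-numbered range lay higher but the ranges overlap, so whether the numbers pair the arrays is not known. Within one slide, no value could be had for Th17 against naive cells.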
